A study of Mus musculus with 8 samples.

Results

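The 10 genes described here are the amino acid response genes of mouse liver: the transcription factors Atf4, Ddit3 and Atf3, the pseudokinase gene Trib3, the enzyme genes Asns, Psat1, Phgdh and Chac1, and the genes of the stress protein Sesn2 and the hormone Fgf21. They were chosen by symbol, and a gene's probes were found through the RefSeq accessions in the scanner files. All 10 were on the array and passed the filter on dim probes, among 26553 genes and unnamed transcripts tested. Whole liver samples came from mice of 10 to 11 weeks in 4 groups of 2 arrays: wild type males, wild type females, and males and females labelled as liver-specific Bcl-6 deficient (genotype "knock out"), all without a treatment in the labels. Bcl6 is a zinc-finger repressor of transcription, and the title of the series puts the question as its effect on the sex difference of the liver. The labels do not name the promoter or Cre line that drives the deletion. Replicates are told apart by number only, so p-values measure the spread between these samples, which may be technical.

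When a cell runs short of an amino acid, uncharged tRNA activates the kinase GCN2, which phosphorylates the initiation factor eIF2. General translation then falls while translation of the Atf4 mRNA rises, and ATF4 switches on genes for amino acid synthesis, transport and tRNA charging. The same route is entered from the endoplasmic reticulum through the kinase PERK, which is why the whole is called the integrated stress response. In liver it is known for raising Asns and the hormone gene Fgf21 when the diet lacks an essential amino acid. Because ATF4 is controlled largely at translation, the Atf4 mRNA is not a reading of the protein.

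ATF4 binds, with C/EBP partners, an element whose core is TGATGNAA (N is any base). The letters were searched on both strands of the 250 bases upstream of each gene's start site in RefSeq promoters of GRCm38.p6. All 10 genes had a window (Psat1 had 2), and 4 of the 10 held a match, against 3.53% of 27025 windows of the same length over all genes. The cAMP response element TGACGTCA was in 0 of the 10 and in 1.62% of all windows, so no match of one overlapped the other. A match describes the letters and is not a measured site. The stretches below are 120 bases of those 4 genes, in the direction of transcription, with the match in capitals. They lie at chr6:7693210-7693329 on the minus strand for Asns, chr1:191183381-191183500 on the minus strand for Atf3, chr2:119350992-119351111 on the plus strand for Chac1 and chr7:45615567-45615686 on the minus strand for Fgf21.
Asns: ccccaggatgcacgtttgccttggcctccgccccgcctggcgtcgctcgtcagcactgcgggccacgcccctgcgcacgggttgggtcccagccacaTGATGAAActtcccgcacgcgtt
Atf3: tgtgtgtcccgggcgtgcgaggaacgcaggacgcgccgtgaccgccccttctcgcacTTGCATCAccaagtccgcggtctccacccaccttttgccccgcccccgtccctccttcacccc
Chac1: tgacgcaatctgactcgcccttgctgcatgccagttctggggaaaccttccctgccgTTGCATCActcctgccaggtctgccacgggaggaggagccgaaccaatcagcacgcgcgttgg
Fgf21: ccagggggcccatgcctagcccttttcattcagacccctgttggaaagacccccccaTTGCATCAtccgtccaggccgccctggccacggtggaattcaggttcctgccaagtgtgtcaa
The match in Asns reads TGATGAAA, 23 to 16 bases upstream of the start site. In the other 3 it lies on the opposite strand and reads TTGCATCA, at 110 to 103 bases upstream in Atf3, 193 to 186 in Chac1 and 139 to 132 in Fgf21.

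Levels are given as log2 of the background-subtracted, spatially detrended processed signal minus the array's 75th percentile, so 0 is the 75th percentile and a step of 1 is a 2-fold change. The 8 arrays had 33677 to 36459 of 59305 non-control spots well above background, no saturated spot, and a 75th percentile of 127 to 158 signal units. They shared 1 slide and 1 scan time, with the females in 1 row of the slide and the males in the other, so slide row and sex cannot be told apart, while both genotypes lay in each row. All 12 hepatocyte markers were well above background on all 8 arrays. Bcl6, read by 1 probe, was at 3.97 and 2.91 on the wild type male arrays, 4.49 and 4.01 on the male arrays labelled knockout, 2.95 and 0.86 in wild type females and 1.62 and 4.41 in females labelled knockout. It was thus not lower in the arrays labelled knockout (adjusted p = 0.676 in males and 0.556 in females, limma). No source used here says whether the probe lies inside the deleted stretch, so it is no check of the genotype, and below "knockout" is the label. In whole tissue, fewer cells of a type and less RNA per cell cannot be told apart.

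Asns, which makes asparagine from aspartate and glutamine and is the classic ATF4 target, was the one gene of the 10 that passed the test. Its level was 19.6-fold higher in wild type males than in wild type females, and 7.70-fold higher in knockout than in wild type females. The other 9 passed in none of the 5 comparisons: knockout against wild type in each sex, male against female in each genotype, and the difference of the knockout effect between the sexes (the interaction). That is 0 of 10 for the knockout in males, where 10.7% of all genes tested passed, and 1 of 10 in females, where 5.93% passed. Between the sexes it is 1 of 10 in wild type, against 0.975% of all genes, 0 of 10 in knockout, against 0.0753%, and 0 of 10 for the interaction, against 0.188%. A call is an adjusted p under 0.05 by limma on 4 group means over the 8 arrays, with Benjamini-Hochberg adjustment over all 26553. At an unadjusted p under 0.05 the counts of the 10 were 3, 2, 5, 0 and 3 in the same order, where 27.2%, 24.9%, 18.0%, 6.0% and 8.37% of all genes stood.

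**Figure D1:**
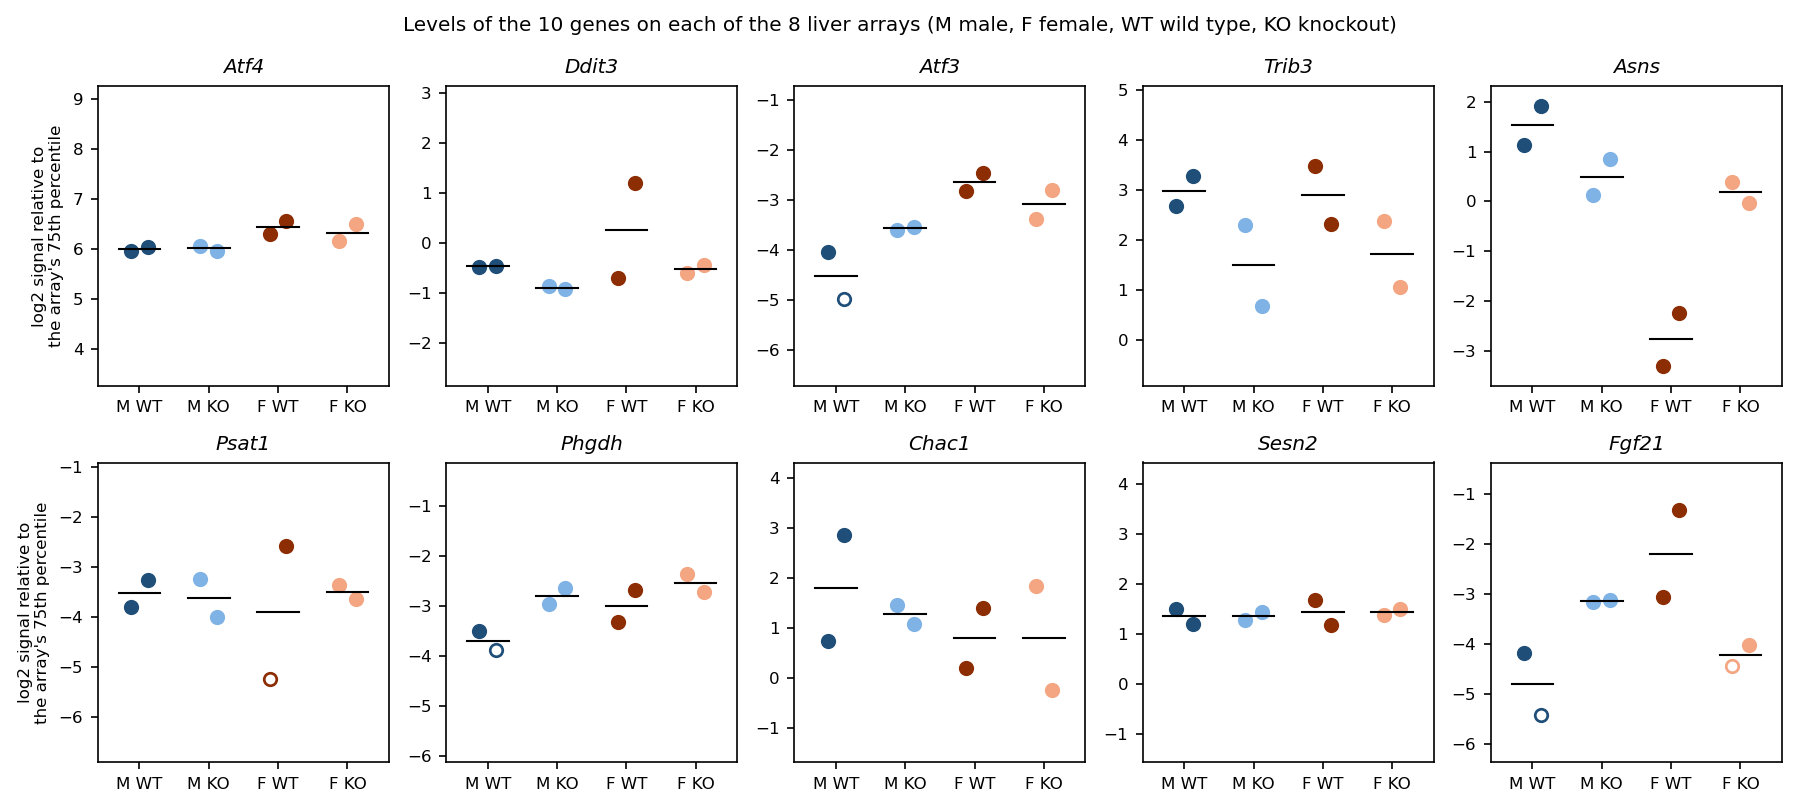
Level of each of the 10 genes (y axis, log2 signal relative to the array's 75th percentile; 1 panel per gene, each with its own range of equal length) in the 4 groups (x axis). Points are arrays, replicate 1 on the left, open where the probe was not well above background, and lines are group means; Asns is lowest on both wild type female arrays, at -3.30 and -2.23, while Atf4 stays between 5.97 and 6.55 on all 8.

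Asns read 1.14 and 1.91 in wild type males and -3.30 and -2.23 in wild type females. In the knockout groups it read 0.14 and 0.84 in males and 0.39 and -0.03 in females. The 2 wild type female arrays were the low ones, the 2 wild type male arrays the high ones, and the knockout arrays of both sexes lay between them and overlapped each other. All 8 readings were well above background.

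The difference between wild type males and females was 4.29 ± 0.45 on the log2 scale (SE, n = 2 and 2, adjusted p = 0.0181, limma), with an unadjusted 95% interval of 9.07- to 42.2-fold. In females the knockout difference was 2.95 ± 0.45 (n = 2 and 2, adjusted p = 0.0215, limma), with an interval of 3.57- to 16.6-fold. Both comparisons share the wild type female arrays. In knockout livers males and females differed by 0.31 ± 0.45 (adjusted p = 0.972, limma), an interval of 0.574- to 2.67-fold. In males the knockout arrays lay below both wild type arrays, a difference of -1.04 ± 0.45 that did not pass (adjusted p = 0.208, limma) and that was -0.68 without knockout replicate 1 and -0.65 without wild type replicate 2. The knockout difference in males minus that in females was -3.98 ± 0.64, and it did not pass either (adjusted p = 0.153, unadjusted p = 0.000779, limma).

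The Asns call in females was lost without knockout replicate 1 (adjusted p = 0.117, limma), without knockout replicate 2 (0.0712) and without wild type replicate 1 (0.0518). It was kept in the other 5 of 8 fits with 1 array left out, and the difference ranged from 2.41 to 3.48. The call between wild type males and females was kept in 3 of 8 such fits. It was lost without female knockout replicate 1 (adjusted p = 0.0588, limma), female knockout replicate 2 (0.0573), male knockout replicate 1 (0.0552), male knockout replicate 2 (0.0517) and male wild type replicate 2 (0.0514), while the difference ranged from 3.76 to 4.82. Without female wild type replicate 2 the interaction passed, at -4.52 (adjusted p = 0.0374, limma). With no filter on dim probes, or with only the 2 groups compared in the fit, neither call held (adjusted p = 0.0554 to 0.132). With normexp background correction, which adds an offset of 50 to each signal, both held with smaller differences, 1.40 in females and 2.51 between the sexes.

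A second Asns probe, A_66_P133222, also had wild type males highest and wild type females lowest. It was well above background on 5 arrays and on neither wild type female array. It read -3.04 and -2.37 in wild type males, -4.25 (not well above background) and -3.55 in knockout males, and -3.66 and -3.74 in knockout females. Set against the lowest signal well above background on the wild type female arrays, wild type males were at least 3.34-fold and knockout females at least 1.67-fold above wild type females. The probe passed the filter through those 2 groups, so these bounds are a description and no separate test. The first probe, A_55_P1959748, had the higher mean signal and stands for the gene.

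**Figure D2:**
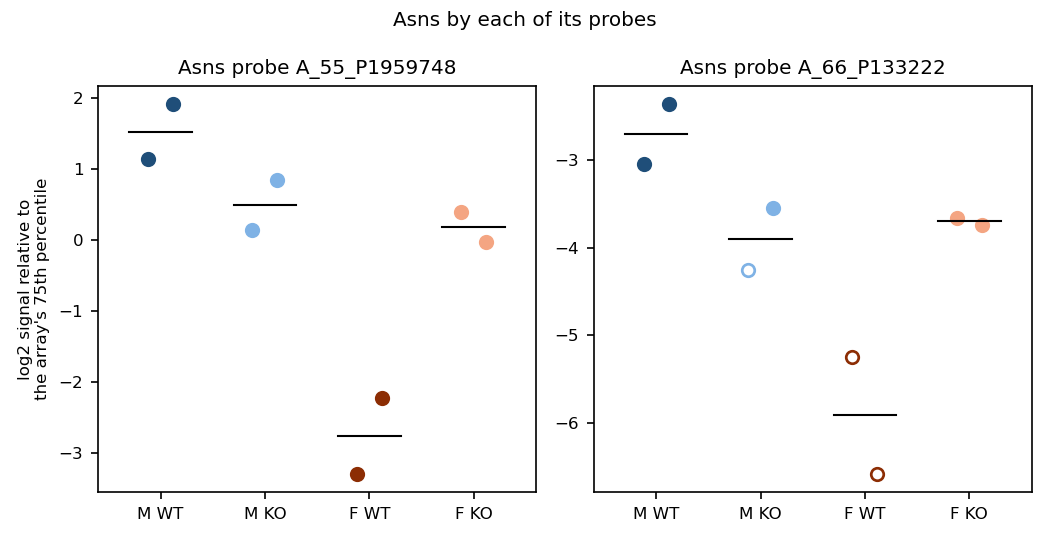
Signal of the 2 Asns probes (y axes, log2 relative to the array's 75th percentile, each with its own range) by group (x axes). Points are arrays, replicate 1 on the left, open where not well above background, and lines are group means; in both probes wild type males are highest and wild type females lowest.

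Pancreatic acinar cells, which carry much Asns, could be held in a liver sample. Of 14 acinar markers 8 were tested, and Prss2, Cpa1, Cpb1, Pnlip, Try4 and Rnase1 did not pass the filter. The summed level of those tested (signal over the 75th percentile) was 44.3 to 63.2 in wild type males, 26.4 to 30.1 in knockout males, 26.5 to 28.9 in wild type females and 25.9 to 26.5 in knockout females. It was thus highest where Asns was highest, and its part in the difference between wild type males and females was not tested. Cela1, an elastase gene, set most of that sum, with 5.20 and 5.80 in wild type males and 3.97 to 4.43 on the other 6 arrays. Amy2a5, the next brightest, read 1.98 and 1.71 in wild type males and 2.60 and 1.82 in wild type females. Of the 8 tested, 6 read higher and 2 (Amy2a5 and Cela2a) lower in wild type males than in wild type females, and 0 passed. Between wild type and knockout females the sum did not rise with Asns. The single markers Cela3b and Pnliprp1 read higher in knockout livers of both sexes, singled out after their values were seen. Cela3b was well above background on 5 arrays and Pnliprp1 on 4. Both passed the filter only through the knockout groups, so this is a description and no test.

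Over the 8 arrays the 3 genes whose pattern was most like that of Asns were Abhd14a (Pearson r = 0.983), Bpifa1 (r = 0.983) and Zfp217 (r = 0.976), given as a description over arrays that share their groups. Their levels spanned far less than that of Asns, from 1.96 to 2.42 for Abhd14a and from 0.74 to 1.02 for Bpifa1, and none passed the test in any comparison.

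Atf4 itself, the factor at the head of the pathway, moved little. It read 5.97 and 6.03 in wild type males, 6.06 and 5.97 in knockout males, 6.31 and 6.55 in wild type females and 6.15 and 6.49 in knockout females. Knockout and wild type arrays overlapped in both sexes, with intervals of 0.781- to 1.31-fold in males and 0.718- to 1.204-fold in females. All 4 female arrays lay above all 4 male arrays, and the difference between wild type males and females was -0.43 ± 0.15 (n = 2 and 2, adjusted p = 0.230, limma). A second probe, A_52_P139727, gave 1.45 to 1.83 on the male and 1.84 to 2.20 on the female arrays, the same order.

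Ddit3 codes for CHOP, the factor that turns a lasting stress response towards cell death. It read -0.49 and -0.46 in wild type males, -0.86 and -0.93 in knockout males, -0.71 and 1.21 in wild type females and -0.61 and -0.45 in knockout females. Wild type female replicate 2 stood 3.76-fold above replicate 1, and the other 7 arrays lay between -0.93 and -0.45. The knockout difference was -0.42 ± 0.56 in males (adjusted p = 0.677, limma; -0.26 with normexp) and -0.78 ± 0.56 in females (adjusted p = 0.429, limma). The female value rests on 1 array: without wild type replicate 1 it was -1.74 and passed (adjusted p = 0.00597, limma), and without wild type replicate 2 it was 0.17 (adjusted p = 0.484, limma).

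Atf3, a stress-induced factor that acts beside ATF4, was dim on all arrays. It read -4.05 and -4.99 (the second not well above background) in wild type males, -3.61 and -3.54 in knockout males, -2.82 and -2.45 in wild type females and -3.39 and -2.80 in knockout females. Wild type males were lowest and wild type females highest. The sexes differed by -1.89 ± 0.35 in wild type (adjusted p = 0.0753, limma) and by -0.48 ± 0.35 in knockout (adjusted p = 0.912, limma). The knockout difference was 0.95 ± 0.35 in males (adjusted p = 0.145, limma) and -0.46 ± 0.35 in females, where the arrays overlapped (adjusted p = 0.456, limma). The interaction was 1.40 ± 0.49 (adjusted p = 0.511, limma). Without wild type male replicate 1 the wild type sex difference was -2.36, with the male side resting only on the reading of -4.99, not well above background. Without that reading, of wild type male replicate 2, the male knockout difference was 0.48. The female knockout difference ranged from -0.75 without knockout replicate 2 to -0.16 without knockout replicate 1, and the sex difference in knockout from -0.77 without the latter to -0.19 without the former. With normexp the wild type sex difference was -0.24 and the male knockout difference 0.13, and none passed.

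Trib3, a pseudokinase that ATF4 and CHOP induce and that in turn restrains ATF4, read 2.68 and 3.29 in wild type males and 2.31 and 0.69 in knockout males. In females it read 3.48 and 2.33 in wild type and 2.38 and 1.07 in knockout. Both knockout male arrays lay below both wild type male arrays, and the female arrays overlapped by a narrow margin. The knockout difference was -1.49 ± 0.71 in males (adjusted p = 0.241, limma) and -1.18 ± 0.71 in females (adjusted p = 0.352, limma). Replicates of 1 group were up to 3.07-fold apart, in the knockout males. The male difference was -2.30 without knockout replicate 1 and -0.68 without knockout replicate 2. The female one was -1.84 without knockout replicate 1, -0.53 without knockout replicate 2 and -0.61 without wild type replicate 1, and none of these passed.

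Phgdh and Psat1 code for the first and the second enzyme of serine synthesis, and both were dim in these livers. Phgdh read -3.49 and -3.88 (the second not well above background) in wild type males, -2.96 and -2.63 in knockout males, -3.31 and -2.68 in wild type females and -2.36 and -2.71 in knockout females. Both wild type male arrays lay below the other 6. The knockout difference was 0.89 ± 0.27 in males (adjusted p = 0.0936, limma) and 0.46 ± 0.27 in females (adjusted p = 0.342, limma), and the wild type sexes differed by -0.69 ± 0.27 (adjusted p = 0.257, limma). The female value was 0.14 without wild type replicate 1, 0.77 without wild type replicate 2 and 0.29 without knockout replicate 1, and the sex difference was -0.38 without female wild type replicate 2. With normexp the 3 Phgdh differences shrank to 0.22, 0.13 and -0.12. Psat1, by its brighter probe, read -3.79 and -3.27 in wild type males, -3.24 and -4.01 in knockout males, -5.25 (not well above background) and -2.58 in wild type females and -3.37 and -3.65 in knockout females. The wild type female arrays were at once its lowest and its highest. The knockout interval was 0.234- to 3.76-fold in males and 0.330- to 5.29-fold in females, and the smallest adjusted p over the 5 comparisons was 0.797 (limma). Its other probe, A_66_P121495, was well above background only on the 2 wild type female arrays, at -3.30 and -4.06. It passed the filter through that group alone, so it is given as readings with no comparison.

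Chac1, which breaks down glutathione, read 0.74 and 2.87 in wild type males, 1.47 and 1.09 in knockout males, 0.19 and 1.41 in wild type females and 1.84 and -0.24 in knockout females. Replicates were 4.38-fold apart in wild type males and 4.23-fold apart in knockout females, and all groups overlapped. The knockout interval ran from 0.144- to 3.37-fold in males and from 0.207- to 4.84-fold in females, and the smallest adjusted p over the 5 comparisons was 0.613 (limma). Sesn2, a leucine sensor that holds back the growth kinase complex mTORC1, was the steadiest target. It lay between 1.18 and 1.67 on the 8 arrays, with a knockout interval of 0.722- to 1.40-fold in each sex and a smallest adjusted p of 0.870 (limma).

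Fgf21, the hormone by which the liver reports amino acid shortage and fasting to other tissues, was dim and spread widely. It read -4.19 and -5.42 (the second not well above background) in wild type males and -3.16 and -3.12 in knockout males. In females it read -3.07 and -1.31 in wild type and -4.43 (not well above background) and -4.01 in knockout. Knockout arrays lay above wild type arrays in males and below them in females, with no overlap in either sex. The probe passed the filter only through knockout males and wild type females, the higher group in each comparison of groups. The differences and p-values of Fgf21 are therefore a description and no separate test. The knockout difference was 1.67 ± 0.63 in males (adjusted p = 0.157, limma) and -2.03 ± 0.63 in females (adjusted p = 0.121, limma), and their difference was 3.70 ± 0.90 (adjusted p = 0.347, limma). Males minus females was -2.62 ± 0.63 in wild type (adjusted p = 0.124, limma) and 1.08 ± 0.63 in knockout (adjusted p = 0.898, limma). The Fgf21 knockout difference moved with single arrays: in females it was -2.91 without wild type replicate 1 and -1.15 without wild type replicate 2. In males it was 1.0498 without wild type replicate 2, whose reading was not well above background. With normexp the knockout differences kept their signs and shrank to 0.31 in males and -0.54 in females, and none of the 5 Fgf21 comparisons passed. Where 1 of 2 arrays was not well above background the size of the difference is uncertain.

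**Figure D3:**
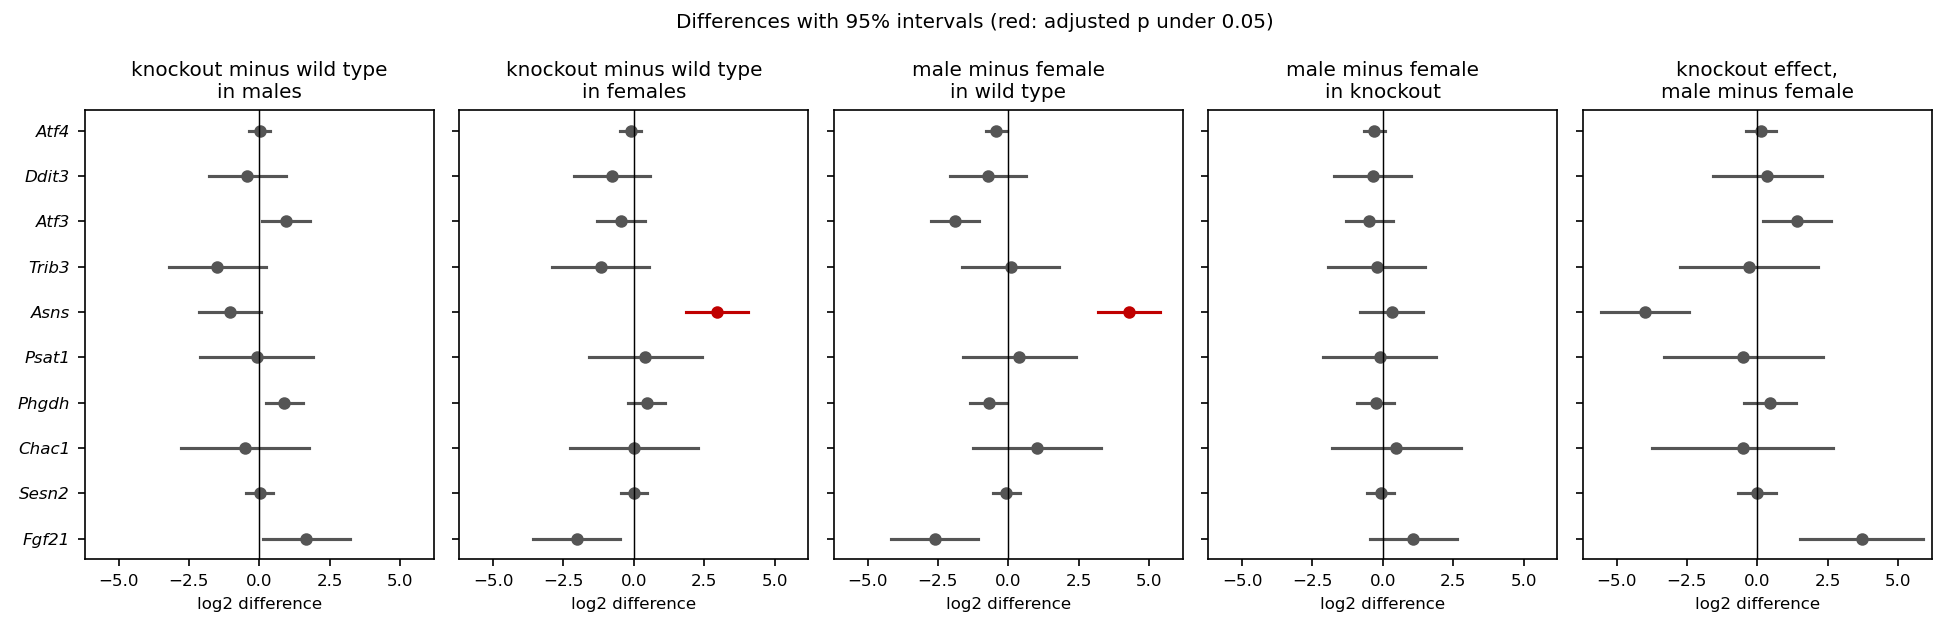
Differences for the 10 genes (rows) in the 5 comparisons (panels; x axis, log2 difference). Points are limma estimates, lines unadjusted 95% intervals, and red marks an adjusted p under 0.05, which Asns reaches in knockout against wild type females (2.95) and in wild type males against females (4.29).

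The arrays of the 2 groups did not overlap for 6 of the 10 genes in knockout against wild type males (Asns, Atf3, Ddit3, Trib3, Phgdh and Fgf21), where 62.0% of all genes tested did not. The count was 2 in females, against 55.5%, and 5 between wild type males and females, against 47.8%. It was 4 between knockout males and females, against 41.3%. The share of the 10 thus exceeded that over all genes only between wild type males and females, by a narrow margin. The 10 genes had no common direction: their median difference was -0.04 for the knockout in males and -0.05 in females, beside -0.04 and 0.0012 over all genes. Their differences were nonetheless large in size, with a median absolute difference of 0.706 in males and 0.457 in females, beside 0.243 and 0.237 over all genes. Between wild type males and females it was 0.708, beside 0.197.

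That size went along with a large spread between replicates of a group. The pooled within-group SD was 1.14 for Chac1, 1.01 for Psat1, 0.87 for Trib3, 0.77 for Fgf21, 0.68 for Ddit3 and 0.55 for Asns, on the log2 scale. It was 0.41 for Atf3, 0.31 for Phgdh, 0.22 for Sesn2 and 0.15 for Atf4, and the median over 26501 genes with all values was 0.169. All genes were cut into 20 bins by level, and each of the 10 was ranked within its bin of 1325 genes. Those first 6 lay above the 90th percentile of their bins, from 94.4 for Fgf21 to 99.8 for Chac1. The spread was widest in wild type females, whose 2 arrays were over 1 log2 unit apart for 6 of the 10 genes, against 4.77% of all genes. In wild type males it was 2 of 10 (3.69% of all), in knockout males 1 of 10 (2.42%) and in knockout females 2 of 10 (2.75%). Wild type female replicate 2 was above replicate 1 for 8 genes, from 1.19-fold for Atf4 to 6.38-fold for Psat1. It was below for Trib3, by 2.22-fold, and Sesn2, by 1.40-fold.

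**Figure D4:**
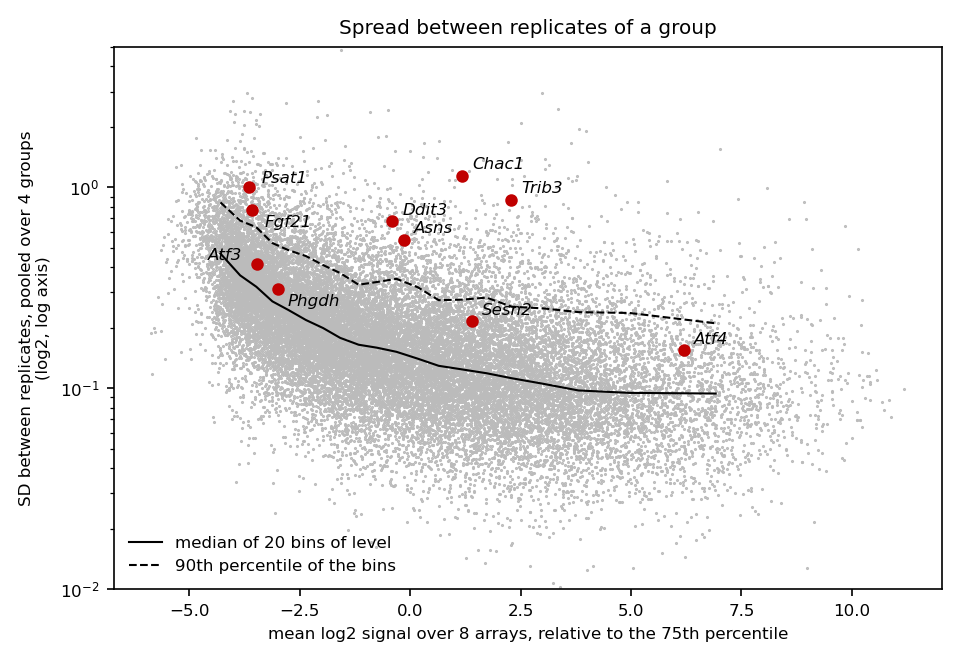
SD between replicates, pooled over the 4 groups (y axis, log2 units on a log axis), against mean level over 8 arrays (x axis, log2 relative to the 75th percentile) for all genes tested (grey) and the 10 genes (red). The lines join the median and the 90th percentile of 20 bins of level; Chac1, Psat1, Trib3, Fgf21, Ddit3 and Asns lie above the upper line.

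Other genes of the pathway are given by list, as counts of those that passed in each direction. Of 20 other ATF4 targets and regulators of the integrated stress response, 1 rose and 2 fell in knockout males, and 1 rose and 3 fell in knockout females. Over all genes tested 5.78% rose and 4.93% fell in males, and 3.48% rose and 2.45% fell in females. The list's median differences were -0.12 and -0.17. Gadd45a, a growth arrest gene, rose in both sexes, from -1.84 ± 0.26 to -0.62 ± 0.12 in males and from -2.37 ± 0.24 to -1.12 ± 0.05 in females (SD, n = 2 each, adjusted p = 0.0118 and 0.0167, limma). Cebpb, a partner of ATF4 on its element, fell in both, by 2.18-fold to 4.38 ± 0.16 in males (SD, n = 2 each) and 2.87-fold in females (adjusted p = 0.0174 and 0.0107, limma). Ppp1r15a, whose product GADD34 reverses the phosphorylation of eIF2, fell 1.49-fold in males and 1.45-fold in females. Herpud1, of the degradation of proteins from the endoplasmic reticulum, fell 2.90-fold in females. The call for Gadd45a was lost in males without either knockout array or wild type replicate 2 and in females without either knockout array. That for Cebpb was lost in males without any 1 male array, and in females it was kept in all 8 fits. That for Ppp1r15a was lost in males without either knockout array of either sex or male wild type replicate 2, and in females without any 1 of the 8 arrays. That for Herpud1 was lost without any 1 array except female wild type replicate 1. The highest adjusted p in these fits was 0.201 (Ppp1r15a in females, limma). With no filter the calls of Gadd45a in females, Cebpb in males, Ppp1r15a in both sexes and Herpud1 were lost (adjusted p = 0.0542 to 0.147, limma). With only the groups compared those of Gadd45a, Cebpb and Herpud1 in females and Ppp1r15a in both sexes were lost (0.0673 to 0.145). Median scaling ended Ppp1r15a in females (0.0775) and the mean of a gene's probes Herpud1 (0.0536). With normexp Gadd45a kept its calls at smaller differences, 0.64 in place of 1.22 in males and 0.49 in place of 1.24 in females.

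Among enzymes of serine, glycine, proline and one-carbon metabolism, 10 of 13 were tested. Of these 2 rose and 1 fell in knockout males and 1 rose and 1 fell in knockout females. The share of all genes that passed in either direction was 10.7% in males and 5.93% in females. Gpt2, the mitochondrial alanine transaminase, fell 2.23-fold in males and 1.86-fold in females. Cbs, which starts the transsulfuration of homocysteine, rose 1.52-fold and 1.57-fold. Aldh18a1, of proline synthesis, rose 1.74-fold in males. Without single arrays, Gpt2 was lost in males without either knockout array and in females without any array but the 2 wild type female ones. Cbs was lost in males without any array but those 2, and in females without any but female wild type replicate 1 and male wild type replicate 1. Aldh18a1 was lost without any 1 male array. The highest adjusted p was 0.134 (Gpt2 in females, limma). With no filter Gpt2 in females, Cbs in both sexes and Aldh18a1 were lost (adjusted p = 0.0546 to 0.0967, limma), and with only the groups compared Gpt2 in females and Cbs in both sexes (0.0556 to 0.131). The mean of a gene's probes ended Gpt2 in females (0.0546), and normexp ended Aldh18a1, at 0.27 in place of 0.80 (0.0681).

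Of the 8 lists the amino acid transporters held the largest single knockout difference in each sex. Of 12 tested of 15, 3 rose and 1 fell in knockout males, and 2 rose and 1 fell in knockout females. The share over all genes, in either direction, was 10.7% in males and 5.93% in females. Slc6a9, the glycine transporter GLYT1, rose 7.10-fold in males and 5.90-fold in females (adjusted p = 0.0133 and 0.0263, limma). Slc43a1, a carrier of large neutral amino acids, rose 2.99-fold and 4.66-fold. Slc38a4, a sodium-coupled carrier of neutral amino acids in hepatocytes, fell 2.04-fold and 2.15-fold. Slc6a9 and Slc38a4 were lost in males without any 1 male array. In females Slc6a9 was lost without any array but the 2 wild type female ones, and Slc38a4 without any but female wild type replicate 2. Slc43a1 was lost in males without either knockout array and in females without knockout replicate 1, and the highest adjusted p was 0.123 (Slc38a4 in males, limma). With no filter Slc6a9 in females and Slc38a4 in both sexes were lost (adjusted p = 0.0735 to 0.0928, limma), and with only the groups compared both in females (0.121 and 0.127). When a gene's probes were averaged Slc43a1 was at 0.81 in place of 1.58 in males and lost (0.0521), at 1.29 in place of 2.22 in females and kept, and Slc38a4 was lost in females (0.0597).

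Of 20 cytosolic aminoacyl-tRNA synthetases 1 rose in each sex and none fell, where 5.78% of all genes rose in males and 3.48% in females. At an unadjusted p under 0.05 (limma) 2 and 2 of the 20 stood, against 27.2% and 24.9% of all genes. The 1 called was Tars, which charges threonine tRNA, 1.81-fold up in males and 2.09-fold in females. Its call was lost in males without any 1 male array (adjusted p up to 0.110, limma) and in females without either knockout array (up to 0.0889). It was also lost with no filter in both sexes (0.0639 and 0.0567) and with only the groups compared in females (0.0907). None of 21 chaperones and genes of the ATF6 and XBP1 arms of the endoplasmic reticulum passed in either sex. Of all genes 10.7% passed in males and 5.93% in females. The chaperone list had 2 and 1 at an unadjusted p under 0.05 (limma) and medians of 0.11 and 0.24. None of 8 p53 targets and other sestrins passed either, with 0 and 2 at an unadjusted p under 0.05 (limma).

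On the side of Fgf21, 16 genes of the FGF21 receptor complex and PPARA targets were tested. Of these 2 rose and 2 fell in knockout males, and 2 fell in knockout females. Beside them 10.7% of all genes passed in males and 5.93% in females, in either direction. Fgfr2 rose 1.76-fold and Fgfr4, the main FGF receptor of hepatocytes, fell 1.75-fold in males. Ehhadh, of peroxisomal fatty acid breakdown, fell 2.01-fold in females, and it was 1.95-fold lower in wild type males than in wild type females (adjusted p = 0.0181, limma). It was the 1 gene of these lists that passed between the sexes, and none passed between knockout males and females or for the interaction. In females Ehhadh was kept in all 8 fits with 1 array left out. In males Fgfr4 was lost without any 1 male array and Fgfr2 without either knockout array or wild type replicate 1. Ehhadh between the sexes was lost without any 1 knockout array or male wild type replicate 2, and the highest adjusted p was 0.121 (Fgfr2 in males, limma). With only the groups compared Ehhadh in females was lost too (adjusted p = 0.0569, limma), as were Fgfr2 (0.0636) and Ehhadh between the sexes (0.183). With no filter Fgfr2, Fgfr4 and Ehhadh between the sexes were lost (0.0714 to 0.0826), and with normexp Fgfr2 was called at 0.48 in place of 0.82.

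Of 30 genes of amino acid breakdown and the urea cycle, 2 rose and 3 fell in knockout males, and 2 rose and 1 fell in knockout females. In either direction 10.7% of all genes passed in males and 5.93% in females. Agxt, which turns glyoxylate into glycine, rose 2.46-fold in males and 2.24-fold in females. Glul, the glutamine synthetase of hepatocytes around the central vein, fell 1.74-fold and 2.19-fold. Prodh, of proline breakdown, fell 2.20-fold in males, and Hpd, of tyrosine breakdown, rose 1.53-fold in females. Agxt and Glul were lost in males without any 1 male array. Prodh was lost in males, and Agxt in females, without any array but the 2 wild type female ones. In females Glul was lost without knockout replicate 1 and Hpd without any but wild type replicate 1, and the highest adjusted p was 0.201 (Hpd, limma). With no filter Agxt in females, Glul in males, Prodh and Hpd were lost (adjusted p = 0.0776 to 0.138, limma), and with only the groups compared Agxt, Glul and Hpd in females (0.0865 to 0.166). The mean of a gene's probes ended Glul in males (0.0538) and median scaling Hpd (0.0528).

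**Figure D5:**
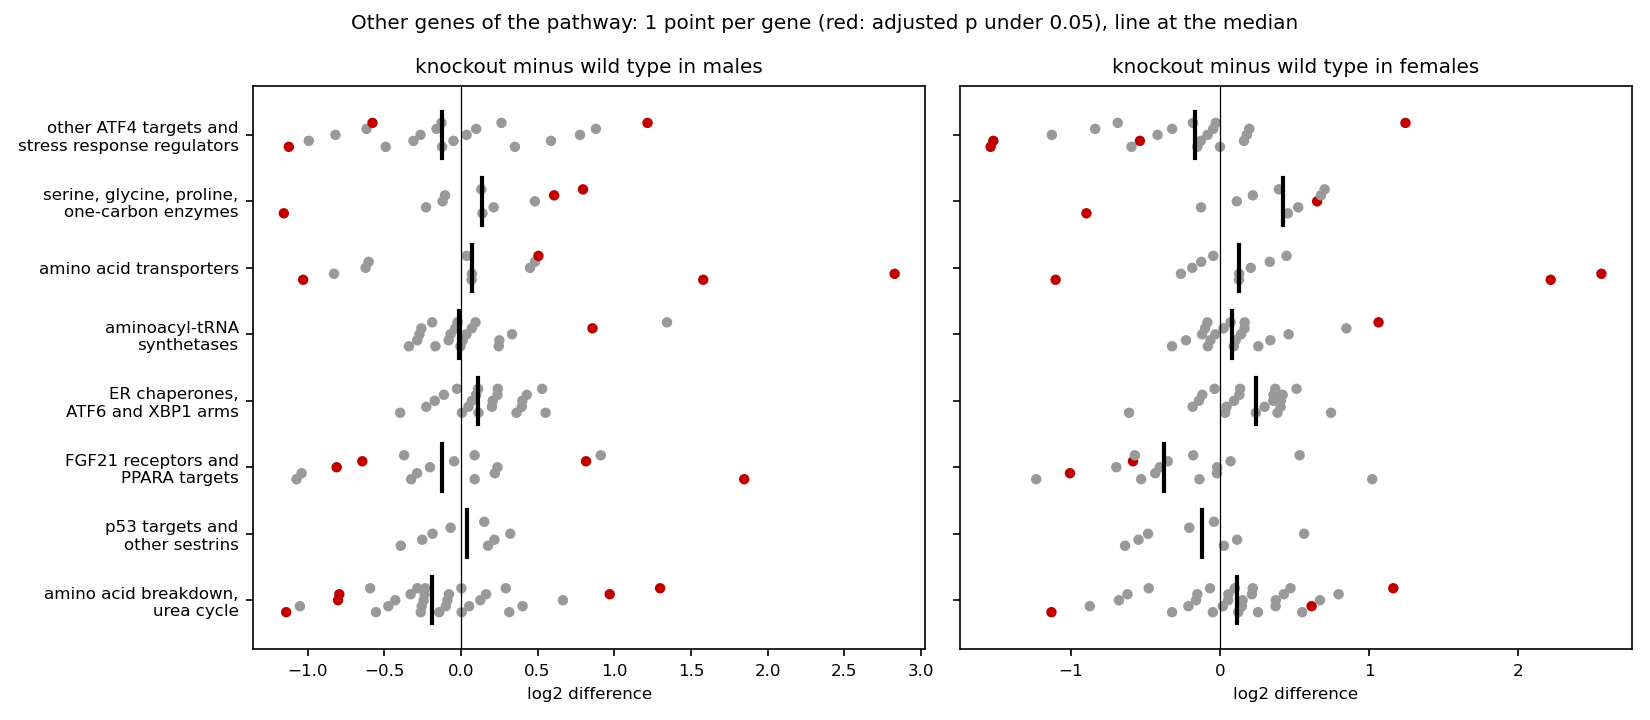
Knockout minus wild type in males (left) and females (right) for the genes of 8 lists (rows; x axis, log2 difference). Each point is a gene, red where the adjusted p is under 0.05, and the thick line is the list's median; the transporters Slc6a9 and Slc43a1 lie farthest to the right in females, at 2.56 and 2.22.

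Some markers of other cells differed between knockout and wild type as well. In males 3 of 9 endothelial markers (Lyve1, Stab2 and Vwf), 3 of 9 stellate cell markers (Col1a1, Col3a1 and Pdgfrb) and 3 of 12 lymphocyte and neutrophil markers (Cd79b and Ms4a1 among them) were higher in knockout. In females the counts were 1 of 9 (Vwf), 0 of 9 and 1 of 12 (Cd79b), with 1 stellate marker lower (Lrat). In males Lrat also read lower, at 0.17 and -0.15 in wild type and -1.15 and -0.85 in knockout, and did not pass. Over all genes tested 5.78% were higher in knockout males and 3.48% in knockout females. None of 11 macrophage, 6 cholangiocyte and 3 adipocyte markers passed in either sex. Of the 12 hepatocyte markers 1, Ttr, was lower in knockout in both sexes (adjusted p = 0.0312 in males and 0.0331 in females, limma). Over all genes tested 4.93% were lower in knockout males and 2.45% in knockout females. The summed endothelial level was 76.3 to 79.3 in wild type and 112 to 119 in knockout males, and 93.4 to 101 in wild type and 110 to 113 in knockout females. For stellate cells the sums, set mostly by Dcn, which passed in neither sex, were 74.8 to 87.4 and 98.8 to 107 in males. In females they were 74.98 to 114 and 104 to 121. For lymphocytes and neutrophils they were 7.22 to 7.72 and 9.09 to 9.45 in males and 7.58 to 7.93 and 10.4 to 11.46 in females. Their part in the knockout differences of the pathway lists was not tested.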

How the data were processed

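Whole liver RNA of 8 samples was read on 1-colour Agilent arrays, 1 array per sample. Per the file headers, the processed signal intensity of each spot was made by Agilent Feature Extraction 11.5.1.1 with background subtraction, while the submitters' processing notes name 9.1.3.1. The deposited value table holds log2 of that intensity minus a constant for each array, within 0.01 for 99.98% of values. Here log2 processed signal minus each array's 75th percentile was taken, leaving out control spots and spots marked uneven or outlying. Spots of a probe were averaged. A probe was kept if both arrays of 1 group or more read it well above background (33582 of 56605). Of several kept probes of a gene, that with the highest mean stood for it. Of the probes, 32994 were named by matching their accessions to RefSeq.

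Group means were compared with limma 3.58.1 in R 4.3.3, checked on simulated data, in 1 fit over 4 groups. Named are the 10 genes, up to 3 genes per list and comparison with the smallest adjusted p under 0.05, and the 3 genes most correlated with a called member; Bcl6 is added as the targeted gene, and single markers where their list moved. Genes of the lists that would be named by this rule but are left out of the text are not reported here. Members and lists were chosen with earlier results of these data known. There were 17 alternatives: normexp on median signals, quantile and median scaling, the deposited table, 2 other filters, the mean of a gene's probes, only the groups compared, a replicate block, and each array left out.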

Additional observations from a re-analysis of the deposited data

How the results depend on the processing

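Of the 50 differences (10 genes in 5 comparisons), 2 passed in the main fit, both of Asns, in 12 of 17 alternatives for knockout against wild type females and 10 of 17 for wild type males against females. Of the other 48, 43 passed in no alternative and 5 in some. With no filter, and with only the groups compared, the count of the 10 genes called fell from 1 to 0 in both comparisons. With 1 array left out it ranged from 0 to 2 in each, and from 0 to 1 for the interaction. The Asns difference between knockout males and females ranged from -0.0453 to 0.663 over those fits, and the Ddit3 knockout difference in females from -1.74 to 0.17. Over all alternatives, 25 of the 50 differences changed sign at least once. The 2 called Asns differences were not among them.

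Over all genes, calls for the knockout in males went from 2843 to 1225 with no filter and 1077 to 2912 with 1 array left out. In females they went from 1574 to 2654 with normexp, 522 with no filter, 367 with only the groups compared and 562 to 1690 with 1 array left out. Between wild type sexes they went from 259 to 615, 99, 43 and 86 to 1058 in the same order. Between knockout sexes they went from 20 to 9 with normexp, 1 with the filter on all 8 arrays, 11 with only the groups compared and 11 to 217 with 1 array left out. For the interaction they went from 50 to 16 with no filter and 80 to 530 with 1 array left out. Of 32 called differences of other pathway genes, all 32 were lost in some alternative, 30 of them with 1 array left out, and 0 changed direction. The causes were not tested.

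The replicate numbers showed no clear pairing of the arrays: deviations of same-numbered arrays correlated at -0.00155 to 0.102. With 2 arrays per group these values cannot settle whether the numbers mark a pairing. With the number as a replicate block the interaction had 25 calls in place of 50, and both Asns calls held (adjusted p = 0.0254 and 0.0246). The block ended the calls of Ppp1r15a, Herpud1, Agxt and Hpd in females and of Prodh in males, and no other named call. Signal over background limits Atf3, Psat1, Phgdh and Fgf21, each with at least 1 reading not well above background, and 2 arrays per group limit every comparison.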
